A study of Bos taurus with 42 samples.

Results

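*SOX9*, *PAX1*, *ACAN*, *COL9A1*, *COL11A2* and *HAPLN1*, genes of cartilage and of the sclerotome, were followed through the cerebrum, the liver and the left hind limb muscle of bovine fetuses. They are 6 of the 22,664 genes in the count table, found by the Ensembl identifiers that the study's supplementary tables pair with these symbols: ENSBTAG00000045824 (*SOX9*), ENSBTAG00000006742 (*PAX1*), ENSBTAG00000016158 (*ACAN*), ENSBTAG00000035054 (*COL9A1*), ENSBTAG00000000601 (*COL11A2*) and ENSBTAG00000012411 (*HAPLN1*). The 14 fetuses were collected on day 50 of gestation from Angus-cross heifers bred to a single sire. Dams of 7 fetuses received 100% of their energy requirement from breeding onwards (CON), and dams of the other 7 received 60% of the feed delivered to CON (RES). Each fetus gave a library of every tissue, 42 in all. CON held 1 female fetus and RES 2, and the rest were male. The libraries held between 4,145,093 and 12,741,299 counts. Levels are given as CPM, the counts per 1,000,000 counts of a library, scaled with TMM factors over all 42 libraries, and they can be compared between libraries but not between genes, since transcript lengths were not used here.

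Cartilage forms from mesenchymal cells that condense and then secrete a matrix of collagen fibrils and large proteoglycans. SOX9 is the transcription factor that commits cells to this fate and switches on the matrix genes. PAX1 acts earlier, in the sclerotome, the part of the somite from which vertebrae and ribs arise. *ACAN* encodes aggrecan, the main cartilage proteoglycan, and *HAPLN1* the link protein that fixes aggrecan to hyaluronan. *COL9A1* encodes a chain of collagen IX, which coats cartilage fibrils, and *COL11A2* a chain of collagen XI, which lies inside them. Outside the skeleton, SOX9 is also made by progenitors of the neural tube and by bile duct cells. At this age the limb skeleton is largely cartilage, and it lies against the muscle that was sampled.

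Some libraries stood apart from the rest of their tissue, and they carried many of the extreme values of these genes. In the cerebrum, the library of RES fetus 1 had a median correlation of 0.816 with the other cerebrum libraries and that of CON fetus 23 had 0.897, while the remaining 12 had 0.937 or more. The cerebrum library of RES fetus 1 also held 114.6 CPM of 6 skeletal muscle genes, against a cerebrum median of 4.49, with *MYH3* the most abundant at 72.2 CPM and none of the 6 at 0. In the same library the 3 tendon genes summed to 54.9 CPM against a median of 1.05, with *TNMD* the most abundant at 45.3 CPM and none at 0. In muscle, the library of CON fetus 73 was the least like the others, with a median correlation of 0.931, and 5 young neuron genes (*NEUROD6*, *TBR1*, *DCX*, *TUBB3* and *ELAVL4*) summed to 582.2 CPM there against a median of 13.6. In the liver, RES fetus 1 was the least like the others, at 0.8845, and its TMM factor was 0.1967, the lowest of all 42 libraries. Liver RES 55 was ordinary in its correlation, at 0.947, but held more *SOX9* and *COL9A1* counts than any other liver. Values were recomputed without 4 libraries chosen by their correlation within each tissue (cerebrum RES 1 and CON 23, the lowest pair there, liver RES 1, the lowest liver, and muscle CON 73, the lowest muscle library) and, apart from that, with liver RES 55 left out in place of liver RES 1, a choice made for its *SOX9* and *COL9A1* counts.

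In muscle, all 6 genes were read in all 14 libraries, and 5 of them were highest there. The exception was *SOX9*, which was higher in the cerebrum. In the liver, *PAX1*, *ACAN* and *HAPLN1* were at or near 0, and *SOX9* and *COL9A1* were low. Only *COL11A2* had more than 20 counts in each of the 42 libraries.

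**Figure D1:**
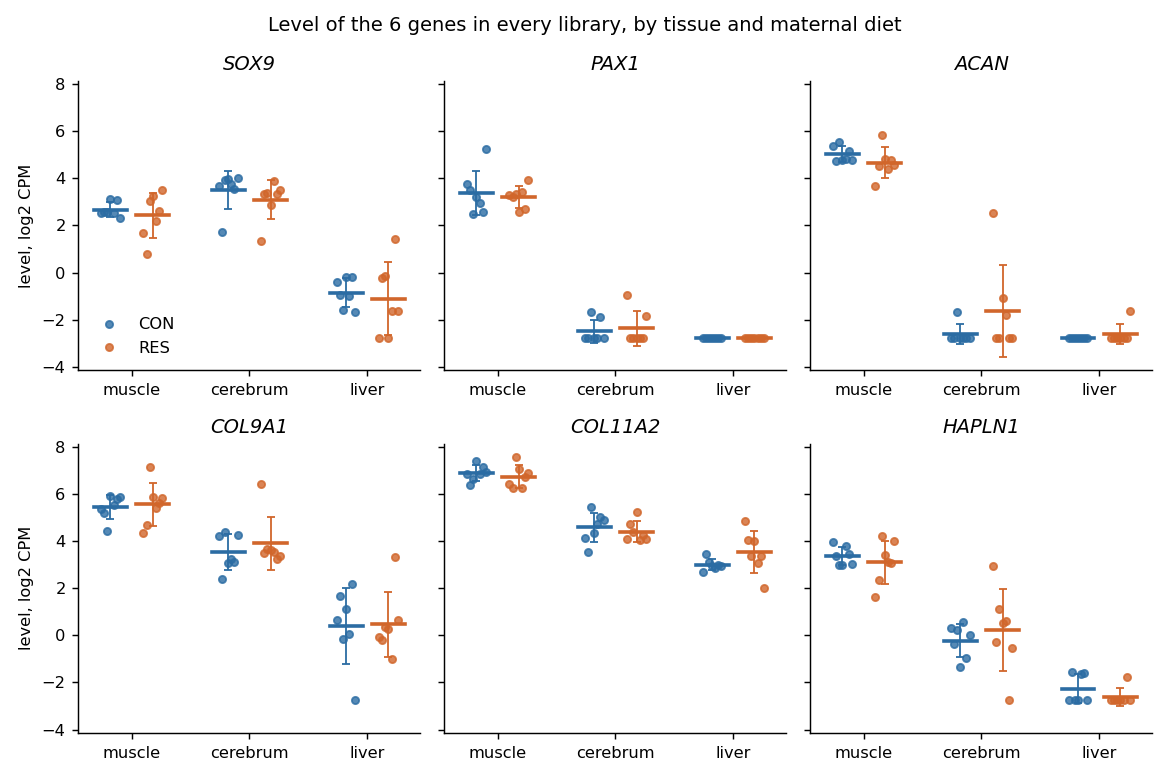
Level of each gene (log2 CPM, prior count of 1) in every library, by tissue, for 7 CON (blue) and 7 RES (orange) fetuses. Bars are means and whiskers 1 SD; a value of -2.77 is a library with 0 counts, as in all liver libraries for *PAX1*, and *SOX9* is the gene whose cerebrum mean lies above its muscle mean.

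*SOX9* in the cerebrum ranged from 3.15 to 15.9 CPM over CON libraries, with a median of 13.4, and from 2.39 to 14.8 CPM over RES libraries, with a median of 10.1. In muscle it ranged from 4.82 to 8.57 CPM in CON and from 1.60 to 11.2 CPM in RES, with medians of 5.73 and 5.89. The liver held 0.169 to 0.731 CPM in CON and 0 to 2.52 CPM in RES. In CON, every cerebrum library but that of fetus 23 lay above every muscle library, and in RES the tissues overlapped with or without fetus 1. Every liver library but RES 55 was below every muscle library. Over the 14 fetuses, *SOX9* was lower in muscle than in the cerebrum by a log2 fold change of -0.81 ± 0.28 (SE), with an adjusted p of 0.00882 in the edgeR quasi-likelihood test. That comparison called 68.1% of the 15,972 genes tested, and 35.9% were called higher in the cerebrum. Muscle was above the liver by a log2 fold change of 3.43 ± 0.35 (SE), and the cerebrum was above the liver by 4.24 ± 0.36 (SE). *SOX9* passed the filter on low counts in muscle and cerebrum but not in the liver. Its differences from the liver are therefore a description with no test. Without the 4 libraries chosen by correlation, the values were -0.92, 3.36 and 4.27, and with liver RES 55 left out in place of liver RES 1 they were -0.90, 3.94 and 4.84. The muscle and liver comparison called 82% of the genes and the cerebrum and liver comparison 83.6%, with 36.6% and 38.5% called higher in the liver, so a call alone sets no gene apart. Without TMM factors the median log2 fold change of all genes shifted by 1.02 between muscle and liver and by 1.03 between cerebrum and liver, and the members kept their directions.

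Beside *SOX9*, the cerebrum was read for 4 neural progenitor genes with a symbol, *PAX6*, *HES1*, *HES5* and *NR2E1*, of a list of 9. Their summed level in the cerebrum ranged from 79.4 to 193.3 CPM, with a median of 135.1 CPM. It was lowest in CON 23, at 79.4 CPM, and low in RES 1, at 103.9 CPM, the same libraries in which *SOX9* was lowest. The sum of the 5 young neuron genes was the highest of the cerebrum in CON 23, at 2797 CPM, and the lowest in RES 1, at 720.8 CPM. *TUBB3* led it, at 1951 CPM in CON 23 and 542.1 CPM in RES 1. *DCX*, of the same list, was low in both, at 4.62 and 1.01 CPM, against 17.7 CPM or more in the other cerebrum libraries. No gene of the 4 was at 0 in either library. The young neuron rank of CON 23 holds on the TMM scale, where its factor of 0.7641 was the lowest of the cerebrum. CON 54 held more *TUBB3* counts, 12,617 against 9289 in CON 23, in a library of fewer counts (6,090,050 against 6,230,771). In bulk tissue, fewer cells of a type and less RNA per cell cannot be told apart. The 5 named genes that followed *SOX9* most closely over the 14 cerebrum libraries were *SOX11*, a factor of young neurons, with r = 0.946, *MSL2*, *PFAS*, a purine synthesis enzyme, *FAM76A* and *TXLNA*, with r between 0.935 and 0.946 for the 5. These points share RES 1 and CON 23, and without those libraries r was 0.60 for *SOX11* and between 0.48 and 0.62 for the other 4. Among the remaining members, *COL11A2* had r = 0.41 with *SOX9* in the cerebrum, *COL9A1* had -0.37 and *HAPLN1* had -0.47, and without the same libraries the values were -0.13, 0.27 and -0.02. The neural progenitor part in the level of *SOX9* was not tested.

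*PAX1* was read in muscle almost alone. It ranged from 5.39 to 38.0 CPM in CON muscle, with a median of 8.97 CPM, and from 5.84 to 15.1 CPM in RES muscle, with a median of 9.75 CPM. The cerebrum held 6 counts in all, in 4 of 14 libraries, and the liver held none. Muscle was therefore at least 280.3-fold above the liver, taking 3 counts over all liver libraries as the limit that a count of 0 allows. Against the cerebrum the pooled ratio was 183.6, with an exact 95% interval of 84.1 to 501.2 that covers counting error only. *PAX1* is in the list of muscle-specific genes that the study chose on these samples, and so is *ACAN*, so their tissue contrast is a description with no test.

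The highest *PAX1* value was a single library. CON fetus 73 held 347 counts, or 38.0 CPM, which was 4.22 times the median of the other 13 muscle libraries, whose highest value was 15.1 CPM in RES fetus 70. In CON 73 the 5 young neuron genes were led by *TUBB3*, a neuronal tubulin, at 428.7 CPM, and none of them was at 0. RES fetus 1 had the next highest neuron sum, at 131.2 CPM, and its *PAX1* level of 9.75 CPM was the RES median. The genes that followed *PAX1* most closely over muscle were *PLAAT1*, with r = 0.87, *PCLO*, a presynaptic protein, with 0.86, *APOE*, a lipid carrier, with 0.85, *CLDN11*, a tight junction protein, with 0.85, and *BASP1*, a protein of growing axons, with 0.84. Without CON 73 these values were 0.79, 0.60, 0.53, 0.61 and 0.51. The part of nerve tissue in the *PAX1* level of this library was not tested.

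*PAX9*, which acts with PAX1 in the sclerotome, was the other named gene of the sclerotome markers, and *NKX3-2* was not analysed here. It ranged from 1.92 to 7.12 CPM in CON muscle, with a median of 4.49 CPM, and from 0.4565 to 3.09 CPM in RES muscle, with a median of 2.36 CPM. The groups overlapped, and the highest value was again that of CON 73. Its RES minus CON log2 fold change was -1.24 ± 0.42 (SE), with an unadjusted p of 0.0106 and an adjusted p of 0.470 in the edgeR quasi-likelihood test. *PAX9* had 2 counts in all in the cerebrum and 2 in the liver.

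*ACAN* was the most sharply divided of the matrix genes. CON muscle held 26.9 to 46.1 CPM, with a median of 28.3 CPM, and RES muscle 12.8 to 57.7 CPM, with a median of 23.9 CPM. All 14 liver libraries together held 1 count, against 3595 counts in muscle. The cerebrum held 49 counts, of which 45 were in the library of RES fetus 1, and 10 of 14 libraries were at 0. The ratio of muscle to cerebrum was 60.1 (45.4 to 81.45, exact 95% interval for counting error) with every library. It was 644.8 (251.6 to 2368) without the 4 libraries chosen by correlation.

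*HAPLN1* ranged from 7.77 to 15.3 CPM in CON muscle, with a median of 10.25 CPM, and from 2.90 to 18.6 CPM in RES muscle, with a median of 8.41 CPM. In the cerebrum the median was 0.932 CPM, with 0 to 2.00 CPM in every library but RES 1, which had 7.43 CPM. The liver held 4 counts in all. Muscle was above the cerebrum by a log2 fold change of 2.96 ± 0.37 (SE), with an edgeR adjusted p of 2.97e-09, and by 3.57 without the 4 libraries chosen by correlation. In that comparison 32.2% of all genes were called higher in muscle. The ratio of pooled counts between muscle and cerebrum was 7.43 (6.21 to 8.95, exact 95% interval for counting error) with every library and 12.3 (9.68 to 15.9) without those 4. The ratio of pooled counts between muscle and liver was 188.5 (73.4 to 693, exact 95% interval for counting error).

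The collagen genes were read in all 3 tissues. *COL11A2* ranged from 82.5 to 167.8 CPM in CON muscle and from 75.4 to 190.3 CPM in RES muscle, with medians of 115.5 and 105.5 CPM. The cerebrum held 11.6 to 42.9 CPM in CON and 16.3 to 37.3 CPM in RES, and the liver 6.30 to 10.8 CPM in CON and 3.89 to 28.3 CPM in RES. Muscle did not overlap with either of the other tissues. The log2 fold change of *COL11A2* was 2.28 ± 0.21 (SE) between muscle and cerebrum and 3.48 ± 0.22 between muscle and liver, with edgeR adjusted p of 4.61e-13 and 2.42e-18. The cerebrum was above the liver by 1.2 ± 0.21 (SE), with an edgeR adjusted p of 1.75e-06. In the muscle and liver comparison, 45.5% of all genes were called higher in muscle, and in the cerebrum and liver comparison 45.2% were called higher in the cerebrum.

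*COL9A1* ranged from 21.2 to 59.5 CPM in CON muscle, with a median of 45.5 CPM, and from 20.2 to 139.9 CPM in RES muscle, with a median of 49.0 CPM. In the cerebrum it ranged from 5.04 to 20.7 CPM in CON and from 9.28 to 85.3 CPM in RES, with medians of 9.31 and 11.4 CPM. The liver medians were 1.42 CPM in CON and 1.04 CPM in RES. The cerebrum library of RES 1 lay above 13 of the 14 muscle libraries. Muscle was above the cerebrum by a log2 fold change of 1.58 ± 0.37 (SE), with an edgeR adjusted p of 0.000262, and above the liver by 4.58 ± 0.45 (SE), with an edgeR adjusted p of 1.72e-12. Between cerebrum and liver the difference was 3.0 ± 0.44 (SE), with an edgeR adjusted p of 4.33e-08. Without the 4 libraries chosen by correlation, the pooled ratio of muscle to cerebrum was 4.08 (3.82 to 4.37, exact 95% interval for counting error) in place of 2.82 (2.68 to 2.98). The pooled ratio of muscle to liver was 23.2 (19.9 to 27.4) with every library, 22.5 (19.2 to 26.5) without those 4 and 35.9 (29.3 to 44.6) with liver RES 55 left out in place of liver RES 1.

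Within muscle, the 5 cartilage genes varied more between fetuses than most genes. The SD of log2 CPM over the 14 muscle libraries was 0.72 for *COL9A1*, 0.70 for *SOX9*, 0.70 for *HAPLN1*, 0.53 for *ACAN* and 0.41 for *COL11A2*, beside a median SD of 0.26 over the 14,947 genes that passed the filter. *PAX1* had an SD of 0.73. For each of the 5 cartilage genes, the lowest and highest libraries were both in RES. RES fetus 25 had the highest *ACAN*, *COL9A1*, *COL11A2* and *HAPLN1* of all muscle libraries, with 515, 1248, 1698 and 166 counts. RES fetus 1 had the lowest *ACAN*, *COL9A1* and *HAPLN1*, with 110, 174 and 25 counts. RES fetus 6 was among the lowest 3 libraries for all 5 genes and had the lowest *SOX9*, with 14 counts. RES fetus 70 had the highest *SOX9*, with 104 counts.

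**Figure D2:**
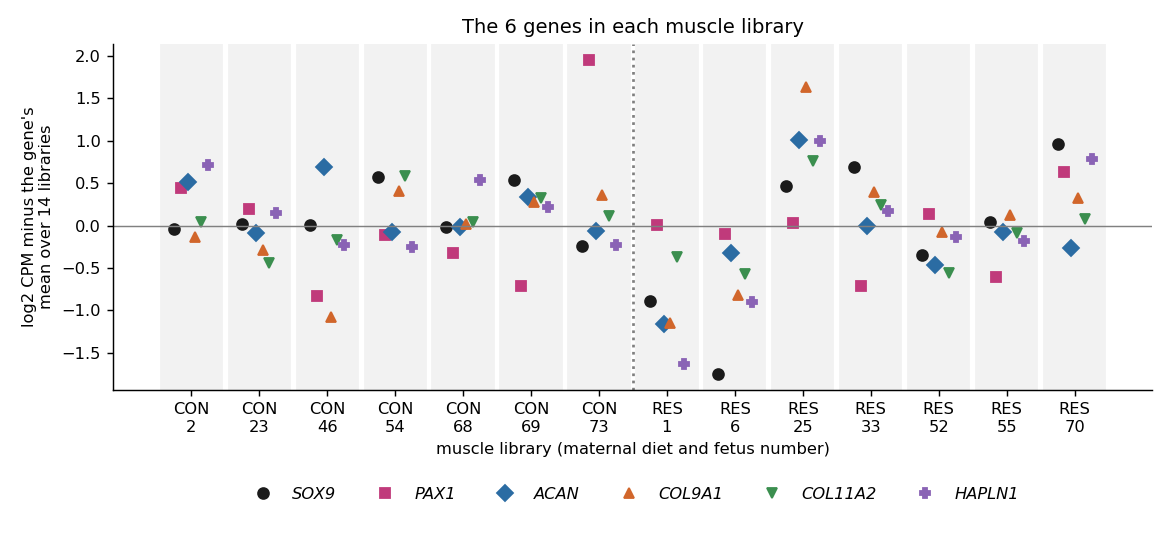
Each gene's log2 CPM in a muscle library minus its mean over the 14 libraries, for CON (left of the dotted line) and RES fetuses. The cartilage genes lie together high in RES 25 and low in RES 1 and RES 6, and *PAX1* lies apart from them in CON 73.

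Marker genes of other limb tissues were read in the libraries with extreme cartilage values. The 6 skeletal muscle genes, led by the embryonic myosin *MYH3*, summed to between 990.9 CPM in RES 25 and 7053 CPM in RES 6, with 1125 CPM in RES 70, 6110 CPM in RES 1 and a median of 3010 CPM over muscle. In CON 73 the same sum was 1453 CPM, beside 219.0 CPM of the 5 cartilage genes against a muscle median of 213.4 CPM. None of the 6 was at 0 in those libraries. *GDF5*, which marks forming joints, was the only named gene of the joint list and was highest in RES 25, at 21.1 CPM, against a muscle median of 8.66 CPM. *RUNX2*, the regulator of bone formation and of cartilage maturation, was at 71.5 CPM in RES 25 and at 9.75 CPM in RES 1. The epidermis pair *KRT5* and *KRT15* summed to 184.4 CPM in RES 70 against a median of 21.8 CPM. The share of muscle, skeleton and skin in a dissected limb was not measured, and the part of that share in the cartilage gene levels was not tested.

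The question of whether the 6 genes rise and fall together was put to the 14 muscle libraries, with 15 pairs and permutation tests of 100,000 resamples. *COL9A1* and *COL11A2*, the collagen genes of cartilage fibrils named above, had the highest Pearson r of the pairs, 0.80, with Spearman's rho of 0.86, permutation p of 0.00032 and 0.00019 and adjusted values of 0.0048 and 0.00285. Without the 2 libraries farthest from the *COL9A1* median, RES 1 and RES 25, r was 0.69. Ranked by r with *COL9A1* among 14,946 genes, *COL11A2* took place 97, while in the same ranking for *SOX9*, *COL11A2* took place 1270, *HAPLN1* 1328 and *COL9A1* 1886. *SOX9* had r = 0.71 with *COL11A2* (permutation p = 0.00345, adjusted 0.0205) and 0.65 with *COL9A1* (permutation p = 0.0146, adjusted 0.0364), and without RES 70 and RES 6 these were 0.75 and 0.67. Spearman's rho for the same pairs was 0.71 and 0.64, with adjusted permutation p of 0.0494 and 0.0734.

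Some pairs with *ACAN* and *HAPLN1* had a lower r without the extreme libraries. *ACAN* and *HAPLN1*, the proteoglycan and its link protein, had r = 0.71 (permutation p = 0.00556, adjusted 0.0205) and rho = 0.46 (permutation p = 0.102, adjusted 0.190), and r was 0.25 without RES 25 and RES 1. *ACAN* and *COL9A1* had r = 0.51 (permutation p = 0.0607, adjusted 0.101) and rho = 0.39 (permutation p = 0.170, adjusted 0.283), and r was -0.27 without the same libraries. *COL9A1* and *HAPLN1* had r = 0.72 (permutation p = 0.00459, adjusted 0.0205) and rho = 0.51 (permutation p = 0.0663, adjusted 0.151), and r was 0.44 without them. *ACAN* and *COL11A2* had r = 0.60 (permutation p = 0.0227, adjusted 0.0486) and rho = 0.63 (permutation p = 0.0196, adjusted 0.0734), and r was 0.34 without RES 25 and RES 1. The *ACAN* pairs with *HAPLN1* and *COL9A1* therefore rest on those 2 libraries. *SOX9* and *HAPLN1* had r = 0.71 (permutation p = 0.00683, adjusted 0.0205) and rho = 0.50 (permutation p = 0.0704, adjusted 0.151). Their r was 0.64 without RES 70 and RES 6, a setting that kept RES 1 and RES 25, the lowest and highest libraries for *HAPLN1*. *COL11A2* and *HAPLN1* had r = 0.56 (permutation p = 0.0346, adjusted 0.0649) and rho = 0.52 (permutation p = 0.0600, adjusted 0.151), and r was 0.33 without RES 6 and RES 25. *SOX9* and *ACAN* had r = 0.45 (permutation p = 0.112, adjusted 0.168) and rho = 0.37 (permutation p = 0.199, adjusted 0.299), with r = 0.64 without RES 70 and RES 6. *PAX1* had r between -0.14 and 0.20 with the other 5 genes, and the smallest adjusted permutation p among those pairs was 0.641 for r.

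Within CON, *ACAN* had r of -0.64 with *COL9A1*, -0.16 with *COL11A2* and 0.13 with *HAPLN1* over 7 fetuses. Within RES the same pairs had 0.93, 0.83 and 0.81. The RES group holds RES 1, RES 6 and RES 25, and the difference of r between diets was not tested. *COL9A1* and *COL11A2* had 0.71 in CON and 0.89 in RES. *SOX9* and *COL11A2* had 0.67 and 0.75. With *HAPLN1*, *SOX9* had -0.19 in CON and 0.82 in RES, *COL9A1* 0.07 and 0.93, and *COL11A2* -0.18 and 0.77. *HAPLN1* was listed by the study for its co-expression in muscle, a choice made on these libraries.

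**Figure D3:**
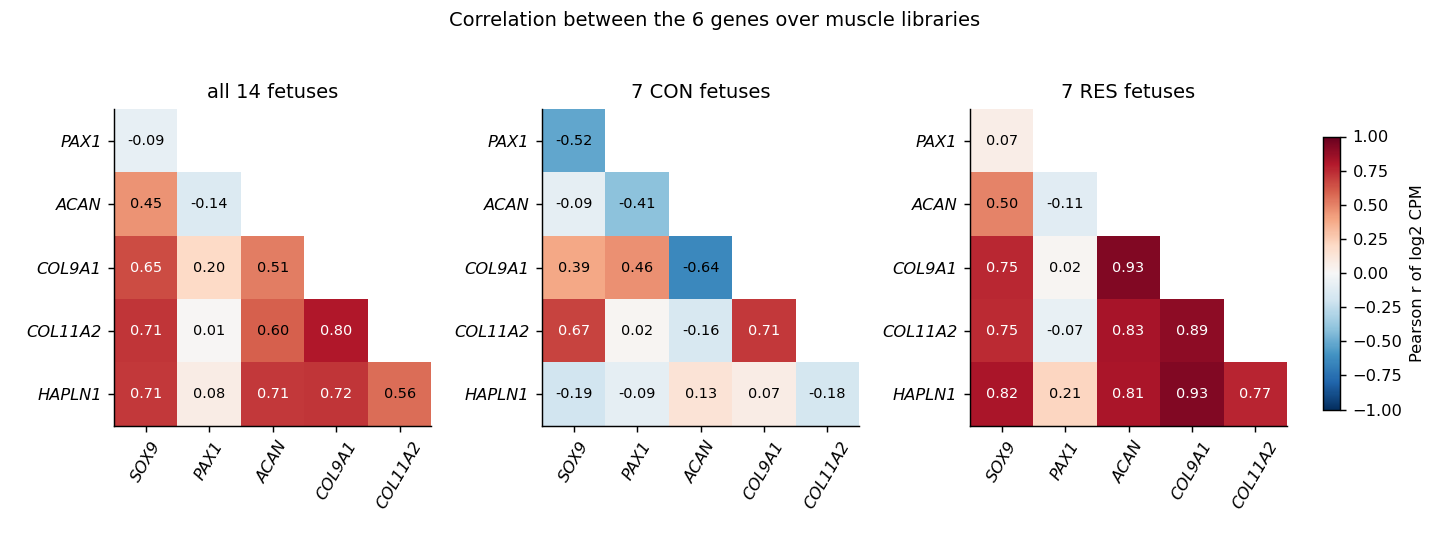
Pearson r of log2 CPM for the 15 pairs over all 14 muscle libraries, over 7 CON and over 7 RES libraries, coloured from -1 (blue) to 1 (red). *COL9A1* and *COL11A2* have 0.71 in CON and 0.89 in RES, while *ACAN* and *COL9A1* have -0.64 and 0.93.

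Of all named genes, those with the highest mean r with *ACAN*, *COL9A1*, *COL11A2* and *HAPLN1* over muscle were *ANO10*, *IVNS1ABP*, *RUNX2*, *FLI1*, a factor of vessel and blood cells, and *FOXN3*, with mean r between 0.75 and 0.78. *SOX9* took place 168 of the 4676 named genes ranked, at 0.63, and *PAX1* place 2179, at 0.04. Without RES 1 and RES 25, the mean r of *RUNX2* was 0.54 and that of *SOX9* 0.57.

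The effect of maternal diet was tested in each tissue. No gene was called at an adjusted p under 0.05 by edgeR in muscle, cerebrum or liver, which is 0% of 14,947, 15,151 and 13,527 genes, and 1481 (9.91%), 386 (2.55%) and 3260 (24.1%) genes had an unadjusted p under 0.05. DESeq2 called 13 genes (0.087%) in muscle, 86 (0.636%) in the liver and 0 (0%) in the cerebrum. None of the members was among them. All 6 members passed the filter on low counts in muscle, *SOX9*, *COL9A1*, *COL11A2* and *HAPLN1* passed in the cerebrum, and *COL9A1* and *COL11A2* passed in the liver.

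In muscle, the RES minus CON log2 fold changes of the 6 genes lay between -0.44 and 0.31, with edgeR adjusted p between 0.718 and 0.901, and exact two-sided permutation p between 0.212 and 0.745 over 3432 splits. The estimate was below 0 for 5 of the 6 genes, beside 51.9% of all genes. For *SOX9* the value was -0.14 (95% interval -0.87 to 0.60), for *ACAN* -0.25 (-0.81 to 0.31), for *COL11A2* -0.11 (-0.57 to 0.35) and for *HAPLN1* -0.15 (-0.86 to 0.56). Leaving out each fetus in turn gave *ACAN* values from -0.59, without RES 25, to -0.098, without RES 1, and *COL11A2* values from -0.33, without RES 25, to -0.018, without CON 54. Leaving out RES 1 alone gave 0.0024 for *SOX9* and 0.022 for *HAPLN1*. *PAX1* had -0.44 (-1.36 to 0.47) with all libraries and 0.11 without CON 73. *COL9A1* had 0.31 (-0.48 to 1.11) with all libraries and -0.20 without RES 25. CON and RES values overlapped for every gene. The SD of log2 CPM in muscle was 0.31 in CON and 0.96 in RES for *SOX9*, and 0.39 and 0.92 for *HAPLN1*. It was also larger in RES for *ACAN*, *COL9A1* and *COL11A2*, and larger in CON for *PAX1*, at 0.94 in CON and 0.46 in RES. These differences in spread were not tested.

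In the cerebrum, *COL9A1* had a RES minus CON log2 fold change of 0.79 (95% interval -0.25 to 1.84) and *HAPLN1* of 1.11 (-0.40 to 2.62). Both rested on RES 1, which had 677 counts of *COL9A1* against 67 to 158 in the other libraries but CON 23, which had 24, and 59 counts of *HAPLN1* against 0 to 11. Leaving out that library gave -0.16 for *COL9A1* and 0.25 for *HAPLN1*, and leaving out CON 68 gave 1.84 for *HAPLN1*. *SOX9* had -0.47 (-1.22 to 0.28) and *COL11A2* -0.22 (-0.80 to 0.35), and with each fetus left out in turn they ran from -0.65 to -0.28 and from -0.42 to -0.075. The edgeR adjusted p was 0.999 for all 4 genes, and the estimate was below 0 for 2 of them, beside 55.1% of all genes. *SOX9* was among the key regulators that the study chose for the cerebrum, and *COL9A1* among its co-expressed cerebrum genes, both from these libraries.

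In the liver, *COL11A2* had the smallest unadjusted p of any member in a diet test. CON livers ranged from 6.30 to 10.8 CPM, with a median of 7.61 CPM, and RES livers from 3.89 to 28.3 CPM, with a median of 10.1 CPM. The groups overlapped, since RES 70 was the lowest of all 14 livers and RES 1, RES 6 and RES 33 lay above every CON liver, an order that depends on the TMM factors. Per 1,000,000 counts of the whole library, with no TMM factor, RES 1 held 5.57, within the CON range of 2.69 to 6.67, RES 6 held 7.28 and RES 33 held 7.50. On that scale RES 55 was the highest liver, at 7.58. The RES minus CON log2 fold change was 0.75 (95% interval 0.12 to 1.38), with an unadjusted p of 0.0222 and an adjusted p of 0.186 in the edgeR quasi-likelihood test. In the liver, 24.1% of all genes had an unadjusted p under 0.05. Without TMM factors the estimate was 0.19 with an edgeR adjusted p of 0.713, and the median of all genes moved from -0.03 to -0.37. Without RES 1, whose liver held the highest value and was the least like the other livers (median correlation 0.8845), the value was 0.47 with an edgeR adjusted p of 0.355. Over the fitted alternatives the adjusted p ran from 0.0837 to 0.713. The exact two-sided permutation p, which was not adjusted, was 0.150. The same 3 livers were the highest for *BGLAP*, which encodes osteocalcin, a bone matrix protein, with 48.3 CPM in RES 1, 26.8 CPM in RES 6 and 18.4 CPM in RES 33 against 1.11 to 12.2 CPM in the rest. *RUNX2*, the other named gene of the bone list of 6, was at 1.99, 0.2395 and 0.2088 CPM there, and the bone pair summed to 50.3, 27.1 and 18.6 CPM against a liver median of 6.15 CPM. These CPM also carry the TMM factors, 0.1967 in RES 1, 0.4473 in RES 6 and 0.4728 in RES 33. In counts, *BGLAP* had 121 of 12,741,299 in RES 1, 112 of 9,335,483 in RES 6 and 88 of 10,130,800 in RES 33. The other livers had 60 or fewer. The part of other cells in the liver *COL11A2* level was not tested. *COL9A1* had -0.52 (-2.20 to 1.17) in the liver, where 52.1% of all genes had an estimate below 0 and the libraries held 0 to 67 counts. Leaving out 1 fetus at a time, the estimate ran from -1.23, without CON 68, to -0.081, without CON 69, and it was -0.91 without RES 55. Its sign depended on the sex covariate, without which it was 0.37, and the mean levels were 1.78 CPM in CON and 2.20 CPM in RES. Its highest value was 67 counts in RES 55, a liver that also held 17 of the 43 *SOX9* counts of that tissue.

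**Figure D4:**
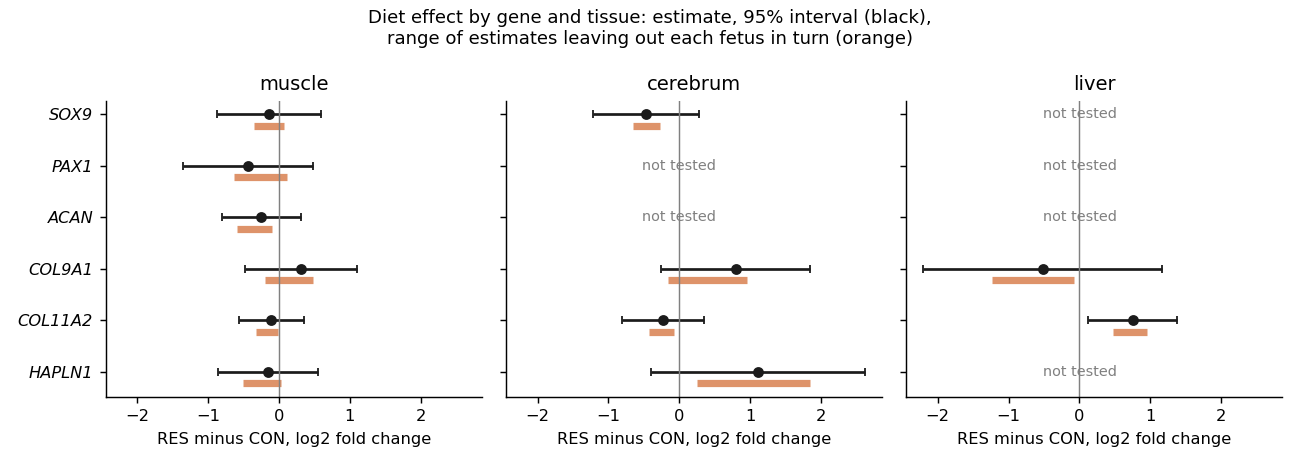
RES minus CON log2 fold change of each gene by tissue, with its 95% interval (black) and the range of estimates when each fetus is left out in turn (orange). All intervals but that of liver *COL11A2* hold 0, and the orange bars of *SOX9*, *PAX1*, *COL9A1* and *HAPLN1* in muscle and of *COL9A1* in the cerebrum reach across 0.

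Whether diet acted differently between tissues was tested as an interaction for members that passed the filter in both tissues. No gene of 15,972 was called in any pair of tissues, with 668 (4.18%), 931 (5.83%) and 1319 (8.26%) genes at an unadjusted p under 0.05, and DESeq2 called 2, 7 and 9. The largest member value was that of *HAPLN1* between muscle and cerebrum, -1.37 ± 0.70 (SE), with an edgeR adjusted p of 1.0. It was -0.41 without the 4 libraries chosen by correlation. *COL11A2* had -0.79 ± 0.39 (SE) between muscle and liver and -0.94 ± 0.39 between cerebrum and liver, with edgeR adjusted p of 0.760 and 0.595.

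In the cerebrum library of RES 1 the ratios of *COL9A1* and of *HAPLN1* to *ACAN* lay outside those of muscle, and the ratio of *COL11A2* to *ACAN* lay within them. Its 677 counts of *COL9A1* against 45 of *ACAN* gave a ratio of 15.04, while the 14 muscle libraries lay between 0.460 and 2.42. For *HAPLN1* to *ACAN* the ratio was 1.31 beside 0.170 to 0.674 in muscle, and for *COL11A2* to *ACAN* it was 2.93 beside 2.16 to 6.79. The ratio of *COL9A1* to *COL11A2* was 5.13 in that library, between 0.213 and 0.735 in muscle and between 0.264 and 1.07 in the other 13 cerebrum libraries. *COL11A2* itself was not raised there, at 16.6 CPM against a cerebrum median of 20.3 CPM, and *SOX9* was the lowest of all cerebrum libraries, at 2.39 CPM. *TTR*, a thyroid hormone carrier made by the liver and the choroid plexus, was at 5636 CPM, and at 11.1 to 1103 CPM in the other cerebrum libraries. *FMOD*, a small proteoglycan of tendon and cartilage, was at 331.6 CPM, the lowest and highest other cerebrum libraries being at 1.46 and 14.3 CPM. *PAX1* had 3 counts and the joint gene *GDF5* 0.378 CPM. The part of other tissues in this library was not tested.

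**Figure D5:**
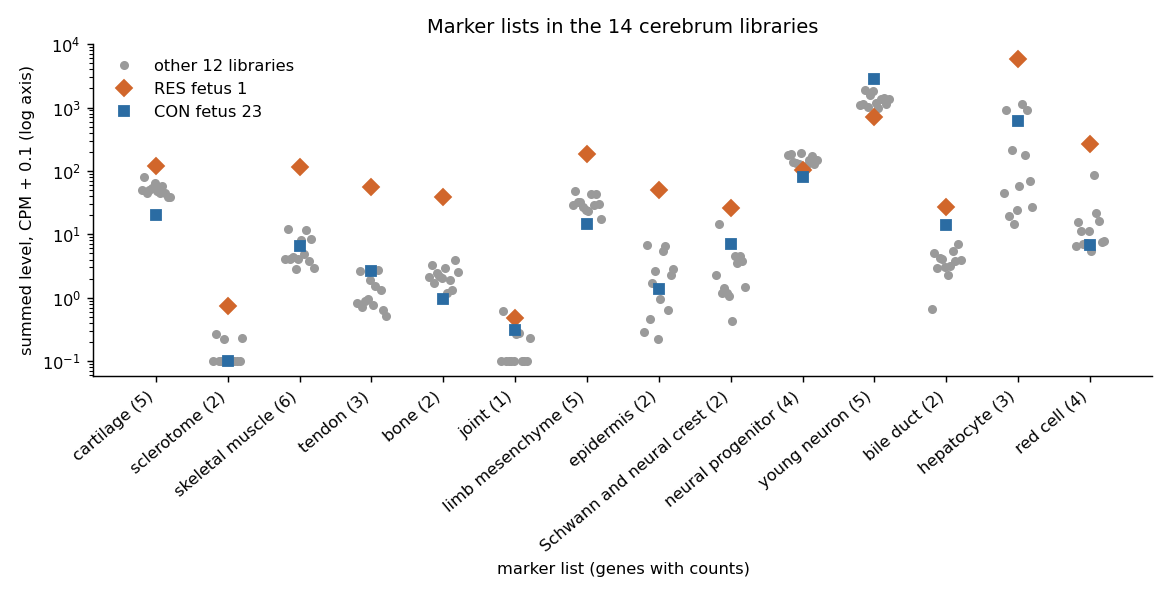
Summed CPM plus 0.1 (log axis) of 14 marker lists in the cerebrum libraries, with the number of genes that have counts in brackets. RES fetus 1 (orange) is the highest library for skeletal muscle (114.6 CPM), tendon (54.9 CPM) and cartilage (117.4 CPM) genes. *COL9A1* alone makes up 85.3 CPM of that cartilage sum. RES fetus 1 is also the highest for the sclerotome, bone, limb mesenchyme, epidermis, Schwann, bile duct, hepatocyte (5802 CPM) and red cell (262.9 CPM) lists. It is the lowest for young neuron genes (720.8 CPM), and CON fetus 23 (blue) is the lowest for neural progenitor genes (79.4 CPM).

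Other genes of the pathway were taken from 7 lists that hold 74 genes, of which 24 had a symbol and counts. Among them, edgeR called 19 higher and 3 lower in muscle than in the cerebrum, where 32.2% and 35.9% of all genes were so called. It called 20 higher and 3 lower in muscle than in the liver, where the shares of all genes were 45.5% and 36.6%. The study's own muscle-specific list, chosen on these samples, holds *MEOX1* and *GDF5* of the 24. The median log2 fold change of the 24 was 1.92 between muscle and cerebrum and 4.37 between muscle and liver, beside -0.06 and 0.21 over all genes tested. Of the 24, 23 passed the filter on low counts in muscle, 19 in the cerebrum and 14 in the liver. Genes read in muscle but not in the other tissue had to differ. These counts and medians, and the counts of single lists below, are therefore a description. None of the 23, 19 and 14 that passed the filter was called for diet by edgeR in muscle, cerebrum and liver, and 3, 5 and 4 had an unadjusted p under 0.05, beside 9.91%, 2.55% and 24.1% of all genes. Without the cerebrum libraries of RES 1 and CON 23, 0 of the 19 had an unadjusted p under 0.05 in the cerebrum, beside 1.11% of all genes. The cerebrum library of RES 1 held 331.6 CPM of *FMOD*, a gene of the list, against at most 14.3 CPM in the others.

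Of the cartilage transcription factors, 4 of 5 were called higher in muscle than in the cerebrum and 4 of 5 higher than in the liver, beside 32.2% and 45.5% of all genes. *RUNX2* had a muscle median of 37.3 CPM and *RUNX3*, which acts in cartilage maturation, one of 4.13 CPM. The exception in the liver comparison was named after its values were seen. *SOX6*, a partner of SOX9 in cartilage, was called lower in muscle than in the liver, by a log2 fold change of -2.79 ± 0.22 (SE) with an edgeR adjusted p of 3.71e-15, and it had medians of 4.29 CPM in muscle, 3.54 CPM in the cerebrum and 28.5 CPM in the liver. Of the sclerotome and somite genes, 4 of 5 were called higher in muscle than in each of the other tissues, against the same shares of 32.2% and 45.5%. Within single tissues, 4 of the 5 passed the filter on low counts in muscle, 2 in the cerebrum and 1 in the liver, so genes read in muscle alone had to differ and the count is a description. *MEOX2*, a homeobox gene of somites and limb muscle, had a muscle median of 177.5 CPM. *UNCX*, a homeobox gene of the sclerotome and of neurons, had 5 counts in all of muscle, 582 in the cerebrum and none in the liver.

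*FMOD* and *COL27A1*, the 2 genes of the cartilage matrix list of 17 that have a symbol here, were called higher in muscle than in each other tissue, with muscle medians of 317.9 and 162.8 CPM. The hyaluronan-binding proteoglycans related to aggrecan went opposite ways between muscle and cerebrum. *VCAN*, the versican of loose embryonic matrix, was higher in muscle by a log2 fold change of 1.82 ± 0.27 (SE, edgeR adjusted p = 8.99e-08), and *NCAN*, the neurocan of brain matrix, was lower by -5.16 ± 0.53 (SE, edgeR adjusted p = 1.64e-11). In muscle *NCAN* had a median of 4.46 CPM and reached 142.3 CPM in 1 library, CON 73. Of the signalling genes, *GLI2*, a Hedgehog effector, *FGF18*, *BMP7*, *GDF5* and *HHIP* were called higher in muscle than in the cerebrum, and *FGFR3*, the receptor that restrains cartilage growth, was called lower than in the cerebrum and lower than in the liver. *HHIP*, which binds and restrains Hedgehog ligands, was called lower in muscle than in the liver, by -1.98 ± 0.19 (SE, edgeR adjusted p = 2.11e-12). *GLI2* had a muscle median of 36.2 CPM and *HHIP* one of 4.67 CPM. Of the chondroitin sulfate synthesis genes, *CHSY1* and *CHSY3*, which extend the chains, were called higher in muscle than in the cerebrum, and *XYLT1*, which starts them, had a log2 fold change of 0.31 ± 0.30 (SE, edgeR adjusted p = 0.368). *CHSY1* had a muscle median of 100.1 CPM and *XYLT1* one of 5.51 CPM. *HTRA1*, the 1 matrix protease of that list with a symbol here, had a muscle median of 338.3 CPM and was called higher there than in each of the other tissues.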

How the data were processed

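Strand-specific paired-end RNA-Seq libraries were made by the authors, checked with FastQC 0.11.8, mapped to the bovine genome ARS-UCD1.2 with Ensembl annotation by STAR 2.7.3a, which also counted reads per gene. What the authors deposited are raw counts for 22,664 genes in 42 libraries. Which strand column was kept is not given in the sources used here, so reads of a gene and of an overlapping antisense gene cannot be told apart; a current reference annotation (ARS-UCD2.0) places an overlapping locus at *ACAN*, *COL11A2* and *HAPLN1*. No column was left unmapped and no library duplicated another. Depth ranged from 4,145,093 to 12,741,299 counts, and 3 counts, taken as the limit that a count of 0 allows, were 0.315 to 1.20 CPM by library, on the TMM-scaled library sizes. Intervals and this limit cover counting error only.

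The 6 members and all lists were chosen with earlier results of these data known. Symbols came from the study's supplementary tables, which name 5131 of the genes. Other list genes, such as *COL2A1*, were not analysed here by name. Genes with CPM below 1 in at least 80% of libraries were left out. Diet was tested within tissues (RES minus CON, sex as covariate), and tissue and the diet by tissue interaction over all 42 libraries, with edgeR 4.0.16 (quasi-likelihood test, TMM, Benjamini-Hochberg adjustment) in R 4.3.3, and the fits were tested on simulated data. Levels are CPM or log2 CPM with a prior count of 1. Correlations used TMM factors within the tissue (Python 3.11.15, scipy 1.17.1). Named genes were the members, the list genes with a symbol (highest and lowest in muscle and any called for diet), and the 5 nearest by r; genes named outside this rule are said to be chosen after their values were seen, or show the remainder of a count. Alternatives were DESeq2 1.42.0, its size factors, other filters, no sex covariate, males only, each fetus left out, exact permutation tests, the fetus as a block, and other values for r. Leaving out libraries chosen by name and fitting on library totals without TMM factors were added after seeing the data.

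Libraries with the same number come from 1 fetus, by their titles. Deviations from group means over 12,251 genes had a mean r of 0.0848 (muscle and cerebrum), 0.148 (muscle and liver) and 0.0882 (cerebrum and liver) within a fetus and -0.0135, -0.0253 and -0.0144 between fetuses.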

Additional observations from a re-analysis of the deposited data

Results flagged for a closer look

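In each group of 7 libraries with more than 3 counts in some library, the highest and lowest log2 CPM were compared with the rest of the group by Dixon's criterion. Of 27 groups, 5 were flagged. Chance flags about 1 in 20 for independent groups of normally distributed values. The groups here share libraries, and 4 of the 7 RES cerebrum libraries were at 0 for *ACAN*, so no excess over that rate is claimed. In the cerebrum, *SOX9* in CON fetus 23 was at 1.72 log2 CPM, below the 3.56 to 4.0 of the other CON libraries, and *SOX9* in RES fetus 1 was at 1.34, below 2.86 to 3.90. *ACAN* in the same RES 1 library was at 2.54 log2 CPM, above -2.77 to -1.09, and *COL9A1* was at 6.42, above 3.24 to 3.66. In the liver, *COL9A1* in RES fetus 55 was at 3.34 log2 CPM, above -1.02 to 0.64. That liver also held 29.2 CPM of *CPA1*, a pancreatic enzyme, and 61.3 CPM of *ACTG2*, a smooth muscle actin, genes named after their values were seen, and the 5 young neuron genes summed to 12.6 CPM against a liver median of 0.658 CPM, with *NEUROD6* and *TBR1* at 0. *ACAN* was at 0 there. The part of other tissues in these values was not tested. *PAX1* in the muscle of CON 73 was not flagged by this criterion.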

How the results depend on the processing

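The diet results counted here are the members' estimates and, for each tissue, the counts of called genes and of called members, which have no direction. Of 252 such results with 1 fetus left out, 246 stayed the same in direction, where they had one, and in side of the threshold. The other 6 were estimates that reversed. Of 140 results under other settings, 135 stayed the same. DESeq2 called 13 genes for diet in muscle and 86 in the liver, and 2, 7 and 9 in the interactions of muscle with cerebrum, muscle with liver and cerebrum with liver, where edgeR called 0. In muscle the diet estimate of *SOX9* reversed to 0.0024 without RES 1 and 0.069 without RES 6 (range -0.36 to 0.069), of *PAX1* to 0.11 without CON 73 (-0.64 to 0.11), of *COL9A1* to -0.20 without RES 25 (-0.20 to 0.48) and of *HAPLN1* to 0.022 without RES 1 (-0.50 to 0.022). In the cerebrum *COL9A1* reversed to -0.16 without RES 1 (-0.16 to 0.96) and to -0.27 without RES 1 and CON 23. Liver *COL9A1* reversed to 0.37 without the sex covariate and to 0.086 in the exact permutation comparison. Apart from the left-out libraries, the causes were not tested.

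With the fetus as a block, 10,888, 13,157 and 13,437 genes were called between tissues, and no member's call changed. The block reversed 1 estimate, the *COL9A1* interaction of muscle with liver, to 0.21, and that value was 0.032 by DESeq2. Settings chosen after seeing the data moved the *COL9A1* interactions too. Without cerebrum RES 1 and CON 23, muscle CON 73 and liver RES 55, muscle with liver was 1.30 and muscle with cerebrum 0.70, and with liver RES 1 left out in place of RES 55, muscle with cerebrum was 0.74 and cerebrum with liver -0.85. On library totals without TMM factors, muscle with liver was 0.14, and 1 gene, not a member, was called in the interaction of cerebrum with liver. Calls of *PAX1* and *ACAN* between cerebrum and liver, which rest on few counts, were lost under some settings. The strict filter left only *COL11A2* of the members in the fits over all tissues. Counts of *PAX1*, *ACAN* and *HAPLN1* in the liver were too few to compare diets there.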

Other observations

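*HOXD13* and *MSX1*, homeobox genes of the limb bud, were looked at in the muscle libraries after their values were seen. In CON, *HOXD13* was at 0.735 CPM in fetus 2, 1.44 in fetus 23, 0.561 in fetus 46, 14.7 in fetus 54, 27.7 in fetus 68, 43.1 in fetus 69 and 2.74 in fetus 73. In RES, *HOXD13* was at 0.929 CPM in fetus 1, 56.9 in fetus 25, 35.04 in fetus 33, 0.360 in fetus 52, 26.1 in fetus 55, 0.342 in fetus 6 and 43.1 in fetus 70. *MSX1* had 0.420, 2.02, 0.898, 48.1, 47.4, 56.9 and 0.986 CPM in the CON fetuses in the same order, and 0.929, 111.3, 71.1, 0.961, 53.3, 0.913 and 67.97 CPM in the RES fetuses. Both genes were above 14 CPM in the same 7 libraries, 3 of CON and 4 of RES, and at or below 2.74 CPM in the other 7. *RUNX2*, set beside them after its values were seen, was at 41.3 to 71.5 CPM in the former and 9.75 to 33.4 CPM in the latter. The ranges overlapped for every cartilage gene. They were 5.64 to 11.2 and 1.60 to 5.78 CPM for *SOX9*, and 23.9 to 57.7 and 12.8 to 46.1 CPM for *ACAN*. For *COL9A1* they were 45.5 to 139.9 and 20.2 to 57.5 CPM. For *COL11A2* they were 105.5 to 190.3 and 75.4 to 121.3 CPM, and for *HAPLN1* 7.77 to 18.6 and 2.90 to 15.3 CPM. Of the latter libraries, only CON 73 lay above the lowest *COL9A1* value of the former, and only CON 2 and CON 73 for *COL11A2*. The part of this split in the cartilage gene levels was not tested.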
